A study of Homo sapiens with 44 samples.

Results

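The experiment described here is the knockdown of EZH2 in MDA-MB-231 cells, measured by RNA sequencing. Its members were chosen by the sample labels: 2 libraries transfected with a small interfering RNA against EZH2 (siEZH2) and 2 transfected with a control siRNA (siControl), 4 of the 44 samples of the series. The series also holds the same pair of treatments in SUM149 cells (4 libraries), a separate experiment with siRelA, siRelB and siControl in MDA-MB-231 (6 libraries), and 30 chromatin immunoprecipitation and input libraries, which were not analysed here. Both lines are human triple-negative breast cancer lines, and SUM149 comes from an inflammatory breast cancer. In every siEZH2 and siControl group cells received 20 nM siRNA with the Dharmafect I reagent, polyadenylated RNA was collected 48 h later after a DNase step, and the labels call the 2 libraries of a group biological duplicates. No label says whether the duplicates came from separate days, so p-values measure the spread between these libraries. The sources used here do not give the siRNA sequences, or whether both MDA-MB-231 experiments used the same control siRNA.

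EZH2 is the catalytic subunit of Polycomb repressive complex 2 (PRC2), which places methyl groups on lysine 27 of histone H3 and so helps to keep genes silent. EED and SUZ12 are its core partners, and PRC1 is the companion complex that binds the mark and compacts chromatin. In triple-negative breast cancer EZH2 is often abundant, and it has also been described as a partner of NF-kB subunits that acts on genes without the histone mark. Knockdown asks which transcripts depend on EZH2. A rise can be, among other possibilities, a gene that EZH2 held down or a gene further along, and levels of RNA do not tell these apart.

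Levels are given as normalised counts, which were obtained by inverting the variance-stabilising transformation of the deposited values. Changes are siEZH2 minus siControl on the deposited log2-like scale with the standard error of the limma fit (n = 2 libraries a group), and this scale understates the fold of genes with few reads, so the fold of the mean normalised counts stands beside it. The step of a single read in the values puts the libraries at about 27.2 and 38.1 M reads for siEZH2 and 28.0 and 31.0 M for siControl. Replicates lay close together, with a median difference between the duplicates of 0.07 for siEZH2 and 0.06 for siControl over the 12356 genes tested. Genes were called at an adjusted p under 0.05. The filter for testing counted the libraries of both lines, so some tested genes had almost no reads in MDA-MB-231.

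The libraries held markers of a mesenchymal breast cancer line together with keratins of luminal cells. Vimentin (VIM) had 51055 and 51272 normalised counts in siEZH2 libraries, against 35174 and 33519 in siControl libraries. The oestrogen receptor gene ESR1 and the progesterone receptor gene PGR were at 0 in all 4 libraries, and so was the basal keratin KRT14. HER2 (ERBB2) had 2069 and 2362 normalised counts in siEZH2 libraries, against 1612 and 1793 in siControl libraries. The 8 mesenchymal line markers summed to 182840 and 176438 normalised counts in siEZH2 and 145758 and 143200 in siControl libraries. The 9 luminal and receptor markers summed to 34450 and 37710 in siEZH2 and 40686 and 39794 in siControl libraries, most of it the keratins KRT8, KRT18 and KRT19. The 8 genes listed as basal epithelial markers summed to 547 and 593 in siEZH2 and 1466 and 1361 in siControl libraries. Most of this sum was EPCAM, an epithelial adhesion molecule, and the basal keratins KRT5 and KRT14 were at or under 3 in all 4 libraries. Of 7 haematopoietic markers 5 were under 3 normalised counts in all 4 libraries, PTPRC, CD3E, ITGAM and HBB among them, and the list summed to 3296 and 3367 in siEZH2 and 1431 and 1718 in siControl libraries, nearly all of it the lysosomal protein CD68. The 6 fibroblast markers summed to 406 and 449 in siEZH2 and 296 and 305 in siControl libraries.

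EZH2 (GRCh38 chr7:148807257-148884321) itself had 368 and 298 normalised counts in siEZH2 libraries, against 3022 and 3019.7 in siControl libraries, 9.08-fold lower, a change of -2.52 ± 0.07 (limma adjusted p = 5.5e-11). The 2 groups were far apart and each pair of duplicates was close. In bulk RNA, less EZH2 transcript in each cell and fewer cells that express it cannot be told apart, here and for every gene below. The other core subunits fell too. EED had 1157 and 1223 normalised counts in siEZH2 libraries, against 1511 and 1606 in siControl libraries, a change of -0.33 ± 0.06. SUZ12, which holds the complex together, had 1897 and 2114 against 2574 and 2715 and changed by -0.36 ± 0.07. RBBP4, a histone-binding subunit, changed by -0.31 ± 0.06, and its paralogue RBBP7 did not pass (0.12 ± 0.05). EZH1, the second methyltransferase that can take the place of EZH2 in the complex, did not pass either, with 1230.5 and 1089.5 in siEZH2 and 1225 and 1428 in siControl libraries (-0.16 ± 0.08, limma adjusted p = 0.11). Among accessory subunits EPOP (-0.32 ± 0.06) and LCOR (-0.28 ± 0.06) fell, while MTF2 (0.30 ± 0.06) and LCORL (0.32 ± 0.07) rose. In all, 3 of 14 tested PRC2 genes rose and 8 fell, EZH2 included, with a median of -0.18. Over all tested genes 29.4% rose and 27.1% fell, with a median of 0.00. The counts of every list below stand against these shares. Near or under them were PRC1 subunits (26.1% up and 17.4% down), methylation writers and erasers (32.3% and 29.0%) and cytokines (24.1% and 27.6%). So were cholesterol genes (25.0% and 28.1%), ERK feedback and AP-1 genes (24.2% and 30.3%) and mitotic genes (31.8% and 18.2%).

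Of 23 tested PRC1 subunits 6 rose and 4 fell, with a median of 0.02, and 2 fell when siControl replicate 1, siControl replicate 2 or siEZH2 replicate 2 was left out. The largest fall was CBX2, a chromodomain subunit that reads the histone mark, with 480 and 459.7 normalised counts in siEZH2 libraries, against 875 and 850 in siControl libraries (-0.64 ± 0.06). CBX6 (0.30 ± 0.05), the ubiquitin ligase subunit RING1 (0.33 ± 0.07) and PCGF5 (0.34 ± 0.06) rose. BMI1, with 2058 and 2082 in siEZH2 and 2085 and 1936 in siControl libraries, and RNF2 did not pass. Of 31 tested writers and erasers of histone and DNA methylation 10 rose and 9 fell, none by 1.5-fold on the log2-like scale, and the counts were 4 down without siControl replicate 1 and 6 up without siEZH2 replicate 2. The demethylase of the same lysine, KDM6B, fell to 69.4 and 41.7 normalised counts in siEZH2 libraries, against 116 and 103 in siControl libraries (-0.35 ± 0.08), and the other such demethylase, KDM6A, did not pass (-0.07 ± 0.06).

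Across the transcriptome 6990 of 12356 genes were called, 3636 up and 3354 down. The balance depended on the scaling. Falls were the larger part when all libraries were set to a common median (3184 up and 3910 down) and after quantile normalization (3322 up and 3792 down). Rises stayed the larger part by edgeR on recovered counts (3782 up and 3649 down). They did so too with a common median of genes called in neither line, an alternative that was not planned (3539 up and 3433 down). Most of the called changes were small, with a median size of 0.33. A change of at least 1.5-fold on the log2-like scale was called for 740 genes that rose, 5.99% of those tested, and for 408 that fell, 3.30%. A change of at least 2-fold was called for 171 that rose and 89 that fell. On recovered counts, where the fold of genes with few reads is not compressed, edgeR called 1780 that rose and 1158 that fell by at least 1.5-fold. Both siEZH2 libraries lay above or both lay below the 2 siControl libraries in 77.4% of all tested genes.

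**Figure D1:**
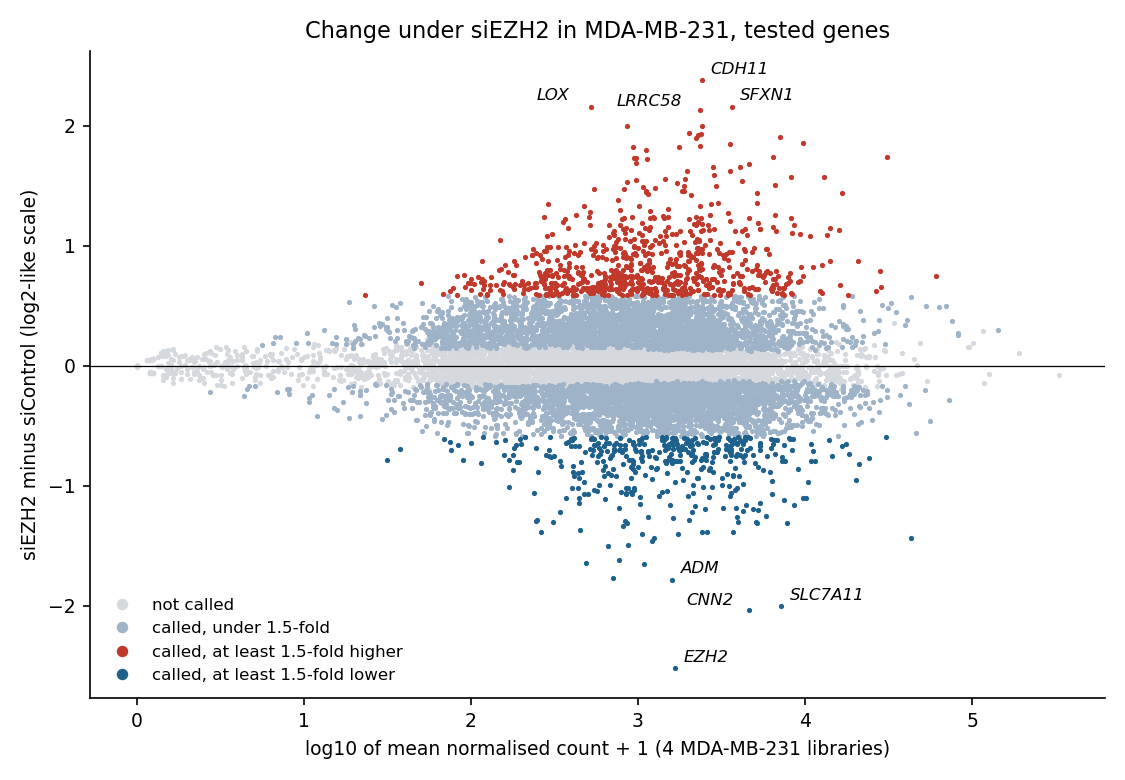
Each point is 1 of the 12356 tested genes. The horizontal axis is the log10 of the mean normalised count over the 4 MDA-MB-231 libraries plus 1 and the vertical axis the siEZH2 minus siControl change on the log2-like scale. EZH2 lies lowest at -2.52, and the highest point is CDH11 at 2.38.

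The 12 largest rises among protein-coding genes were led by CDH11 (GRCh38 chr16:64943753-65126112), a cadherin of mesenchymal cells. CDH11 had 4048 and 4403 normalised counts in siEZH2 libraries, against 609 and 610.2 in siControl libraries, 6.93-fold higher (2.38 ± 0.07, limma adjusted p = 5.8e-11). LOX (GRCh38 chr5:122063195-122078413), the lysyl oxidase that cross-links collagen, had 902 and 1055 normalised counts in siEZH2 libraries, against 74.4 and 64.2 in siControl libraries, 14.1-fold higher (2.16 ± 0.08, limma adjusted p = 1.3e-10). PLAT, the tissue plasminogen activator, had 10779.5 and 11831 normalised counts in siEZH2 libraries, against 2833 and 2785 in siControl libraries, 4.03-fold higher (1.91 ± 0.06). In each of these the groups were several-fold apart and did not overlap, which follows from picking genes by size. Of all tested genes 77.4% did not overlap. PTRF, which encodes the caveolar coat protein cavin, had 14754 and 16222 in siEZH2 and 4003 and 4151 in siControl libraries (1.86 ± 0.07). MT1E, a metal-binding metallothionein, had 3917 and 3629 against 749 and 876 (1.92 ± 0.09), a value that is uncertain because metallothionein genes are near-identical and can share reads.

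A pair of antiviral genes stood among the same 12. SAMD9L, an interferon-induced growth and virus restriction factor, had 4007 and 3878 normalised counts in siEZH2 libraries, against 882 and 813 in siControl libraries, 4.65-fold higher (1.93 ± 0.06). IFIT2, which binds viral RNA and blocks its translation, had 3496 and 3809.9 in siEZH2 and 777 and 799 in siControl libraries, 4.64-fold higher (1.90 ± 0.06). The others were the mitochondrial serine transporter SFXN1 (5.25-fold higher, 2.16 ± 0.05), the copper transporter SLC31A1 (4.89-fold, 1.94 ± 0.05), the Golgi enzyme of N-glycan branching MGAT2 (4.95-fold, 2.00 ± 0.06), the cyclin-dependent kinase phosphatase CDKN3 (7.20-fold, 2.00 ± 0.07) and LRRC58 (5.58-fold, 2.13 ± 0.07). The plot of counts by library shows the 4 values of each of the 12, whose groups lie apart because the genes were picked by size.

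**Figure D2:**
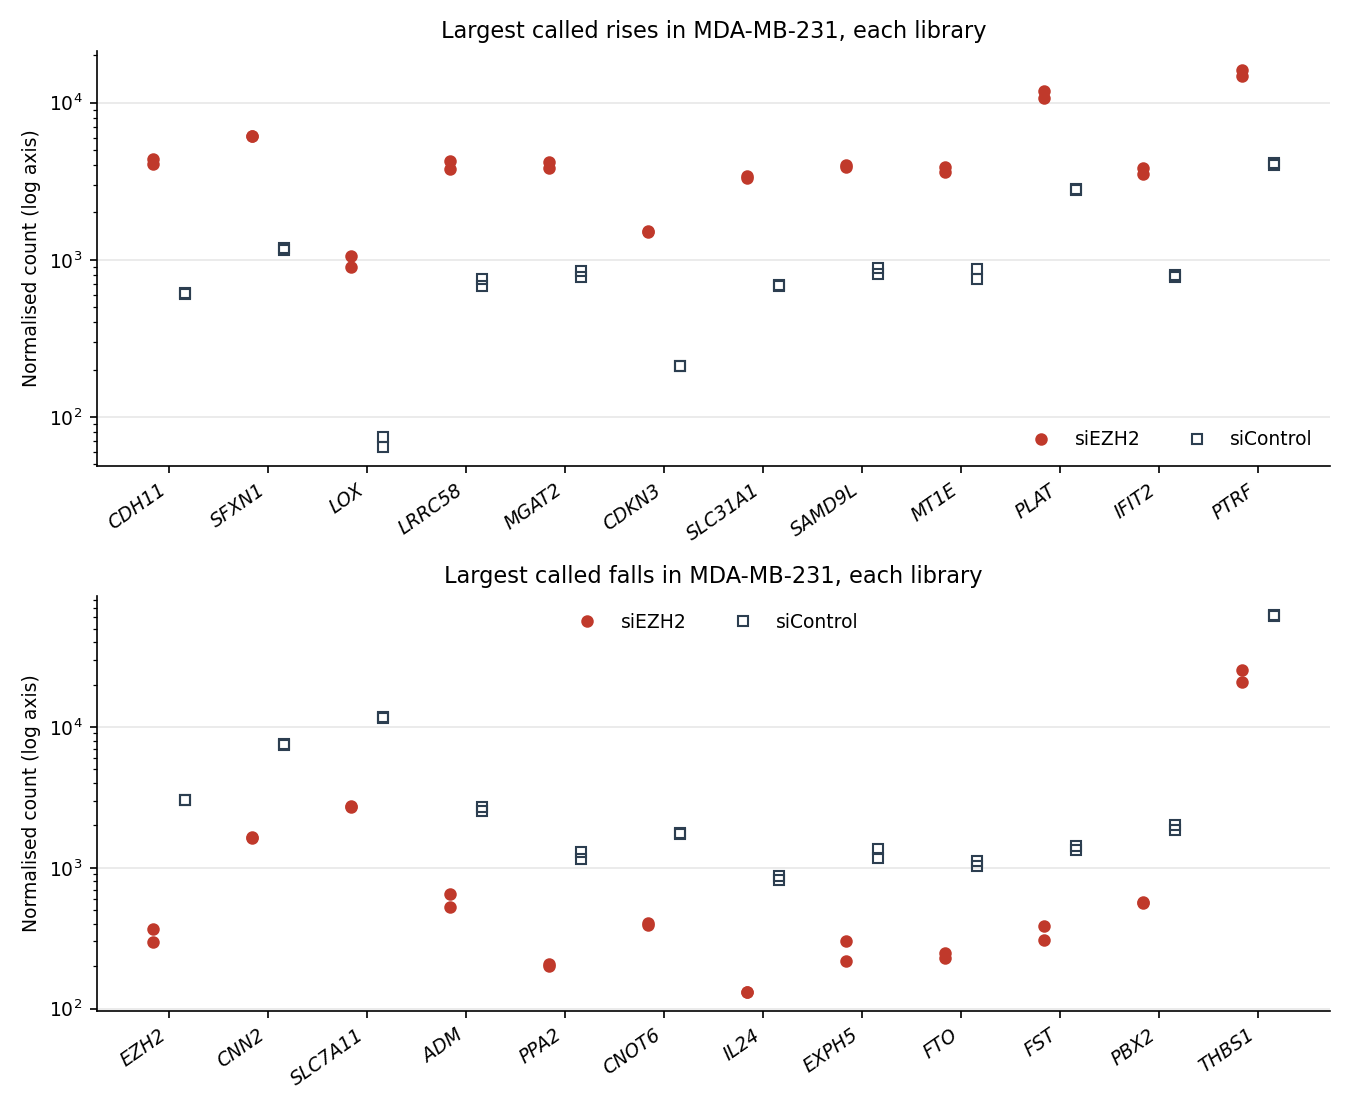
Normalised counts on a log axis for the 12 largest called rises (upper panel) and the 12 largest called falls (lower panel) in MDA-MB-231, with 2 siEZH2 libraries (filled circles) left of 2 siControl libraries (open squares) for each gene. The duplicates lie close together, and the groups lie apart because the genes were picked by size.

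The siControl libraries of the separate siRelA and siRelB experiment, in the same cell line, give a second reading of these 12 genes. The tables were normalised separately and counted with different tools, so only levels in CPM, counts scaled to the total of their library, are set side by side. For some genes the second controls lay near the first. CDH11 had 154 and 163 CPM in siEZH2 libraries, 23.0 and 23.2 in their siControl libraries and 34.1 and 31.6 in the siControl libraries of the other experiment. IFIT2 had 133 and 141 in siEZH2 libraries, 29.3 and 30.4 in their controls and 33.2 and 35.4 in the other controls. SAMD9L had 153 and 144 in siEZH2 libraries, 33.3 and 31.0 in their controls and 41.8 and 48.0 in the other controls.

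For SFXN1, CDKN3, LOX, MT1E and PTRF the second controls lay near or above the siEZH2 libraries. SFXN1 had 233 and 228 CPM in siEZH2 libraries, 44.6 and 43.9 in their siControl libraries and 211 and 210 in the other siControl libraries. CDKN3 had 57.4 and 56.6 in siEZH2 libraries, 7.95 and 8.00 in their controls and 62.6 and 52.8 in the other controls. LOX had 34.4 and 39.2 in siEZH2 libraries, 2.81 and 2.44 in their controls and 65.8 and 76.2 in the other controls. MT1E had 149 and 135 in siEZH2 libraries, 28.3 and 33.4 in their controls and 148 and 116 in the other controls. PTRF had 563 and 602 in siEZH2 libraries, 151 and 158 in their controls and 966 and 1030 in the other controls. For LRRC58, SLC31A1 and PLAT the second controls lay between the groups. LRRC58 had 161 and 141 in siEZH2 libraries, 28.5 and 25.9 in their controls and 103 and 119 in the other controls. SLC31A1 had 131 and 123, 25.8 and 26.4, and 76.1 and 84.9 in the same order, and PLAT 411 and 439, 107 and 106, and 218 and 208. For MGAT2 the second controls lay below both groups. MGAT2 had 147 and 156 in siEZH2 libraries, 32.1 and 29.6 in their controls and 2.46 and 4.44 in the other controls. Over the 12 rises the level in the other controls was a median of 3.58 times that in the siEZH2 experiment's own controls (0.112 to 27.0), against a median of 0.937 over the 11806 genes in both tables (10th to 90th percentile 0.433 to 2.24). The fold of a rise and this ratio share the same siControl libraries, and the part of those libraries in the rises was not tested.

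**Figure D3:**
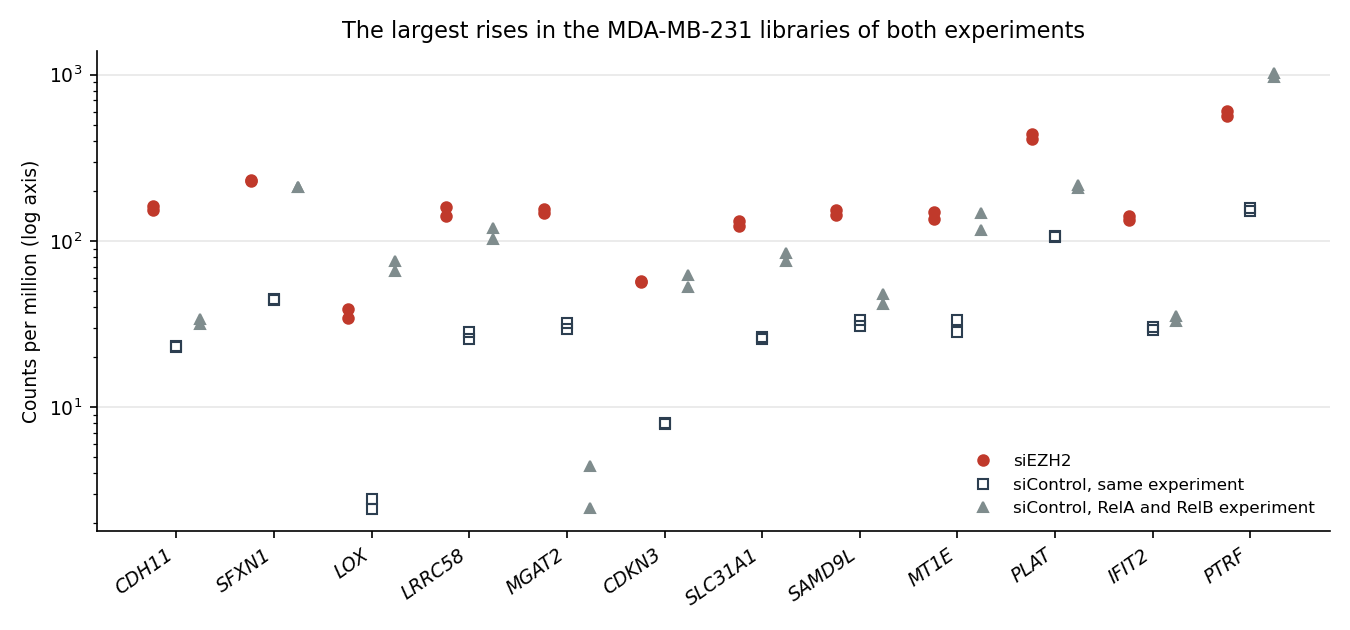
Levels in CPM on a log axis for the 12 largest rises: 2 siEZH2 libraries (circles), the 2 siControl libraries of the same experiment (squares) and the 2 siControl libraries of the siRelA and siRelB experiment (triangles), all MDA-MB-231. The triangles lie by the squares for CDH11, SAMD9L and IFIT2 and by the circles for SFXN1, CDKN3 and MT1E, and the tables were normalised separately.

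After EZH2, the largest falls among protein-coding genes were CNN2, SLC7A11 and ADM. CNN2 (GRCh38 chr19:1026586-1039068), an actin-binding calponin, had 1667 and 1633 normalised counts in siEZH2 libraries, against 7468 and 7596 in siControl libraries, 4.57-fold lower (-2.03 ± 0.06, limma adjusted p = 5.5e-11). SLC7A11 (GRCh38 chr4:138164097-138242349), the cystine importer that feeds glutathione synthesis, had 2728 and 2696 normalised counts in siEZH2 libraries, against 11709.7 and 11616 in siControl libraries, 4.30-fold lower (-2.00 ± 0.05). ADM, which encodes the vasodilator adrenomedullin and is a known hypoxia target, had 527 and 650.5 in siEZH2 and 2700.3 and 2549.8 in siControl libraries (-1.78 ± 0.09). THBS1, the secreted matrix protein thrombospondin, was the most abundant of them with 21059.8 and 25291 against 61889.5 and 63005 (-1.43 ± 0.09). IL24, a cytokine of the interleukin family, had 132 and 131 against 872 and 826, 6.47-fold lower (-1.64 ± 0.06). FST, the activin antagonist follistatin, had 308 and 384 against 1346 and 1434 (-1.49 ± 0.08).

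The remaining 5 falls were PPA2, a mitochondrial pyrophosphatase (6.03-fold lower, -1.77 ± 0.07), CNOT6, a deadenylase of the CCR4-NOT complex (4.41-fold, -1.65 ± 0.06), EXPH5, an effector of vesicle traffic (4.89-fold, -1.62 ± 0.09), the RNA demethylase FTO (4.52-fold, -1.50 ± 0.06) and the homeodomain cofactor PBX2 (3.42-fold, -1.43 ± 0.06). In CPM SLC7A11 had 104 and 100 in siEZH2 libraries, 442 and 442 in their siControl libraries and 90.1 and 112 in the siControl libraries of the other experiment. CNN2 had 63.6 and 60.6 in siEZH2 libraries, 282 and 289 in their controls and 324 and 324 in the other controls. The other controls were thus near the siEZH2 libraries for SLC7A11 and near the siControl libraries for CNN2. Over the 11 falls other than EZH2 the other controls stood at a median of 0.593 times the siEZH2 experiment's own controls (0.143 to 1.13).

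Genes of the type I interferon response rose. This programme is switched on when interferon or foreign nucleic acid is sensed, through factors that include STAT2 and IRF9 and bind a promoter motif called the interferon-stimulated response element (ISRE). Of 50 tested genes 42 rose and 1 fell, against 29.4% and 27.1% of all genes, with a median of 0.41. The shares of called members by list are drawn for every list with at least 10 tested members.

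**Figure D4:**
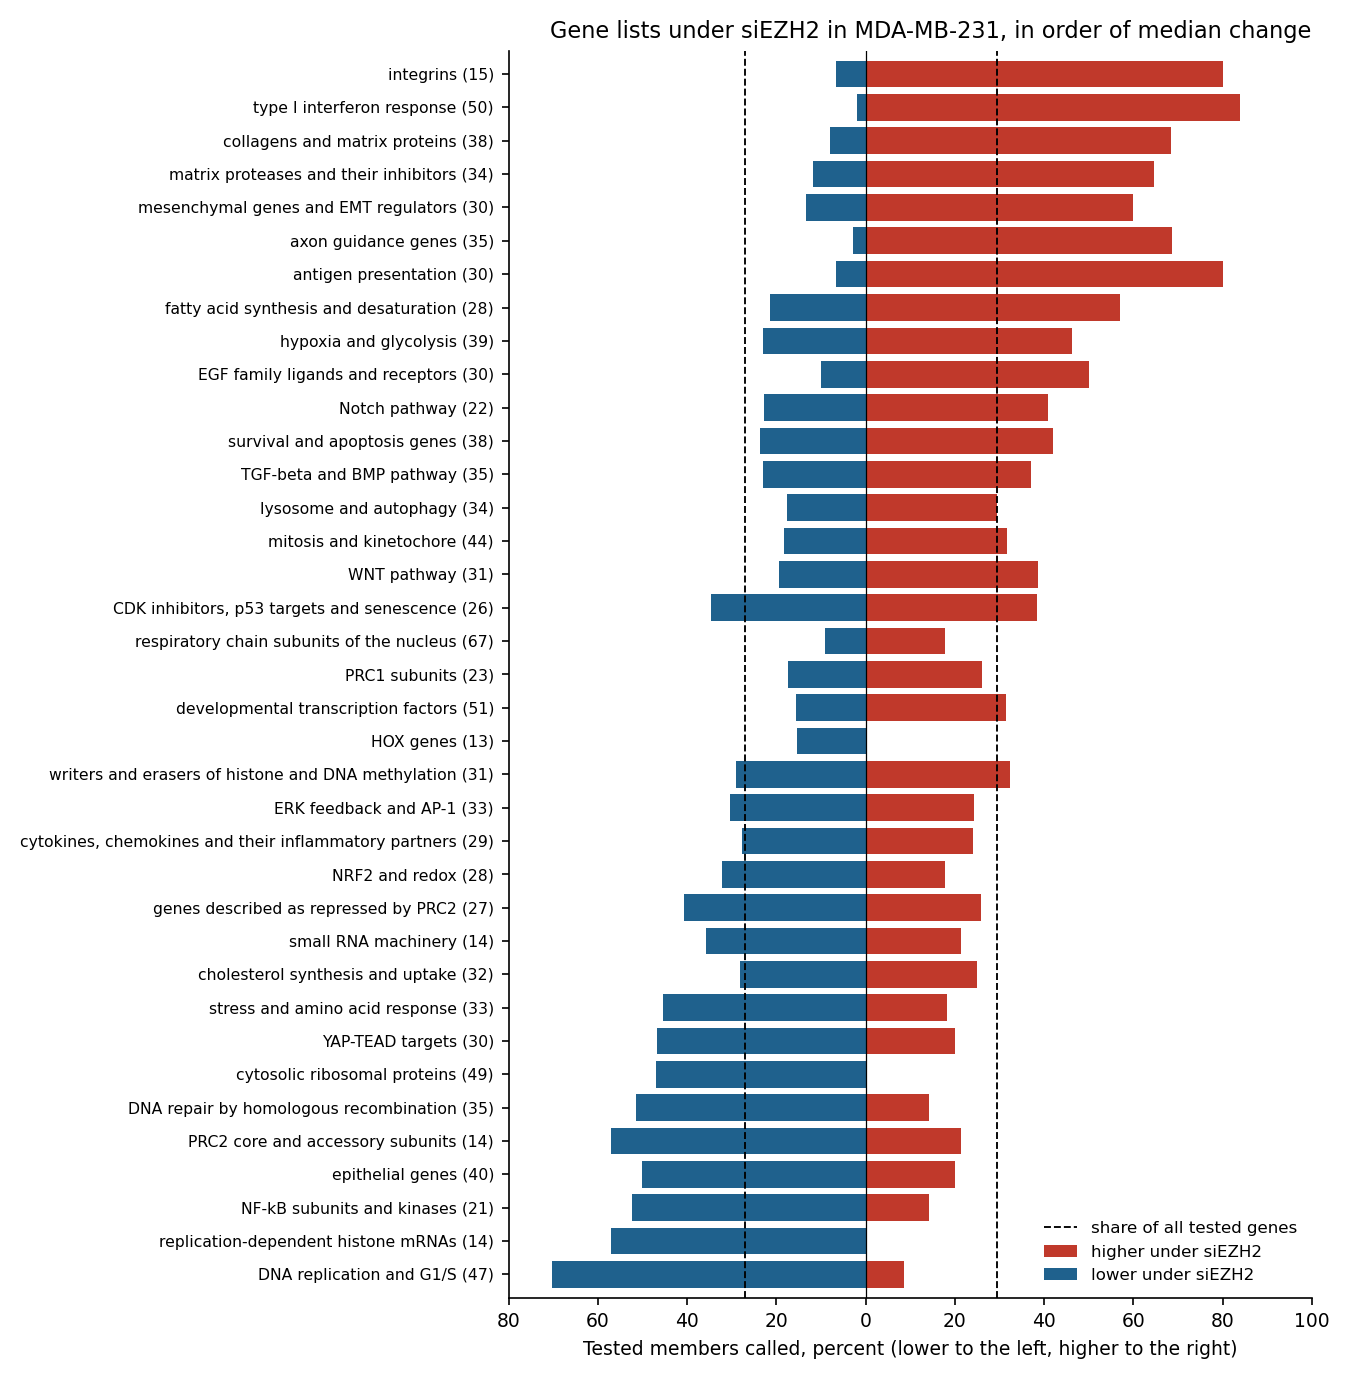
Percent of the tested members of each gene list called higher (right) or lower (left) under siEZH2 in MDA-MB-231, with the number tested in brackets and lists in order of their median change. Dashed lines mark the shares of all tested genes, 29.4% higher and 27.1% lower. Interferon response and integrins lie at the top, and DNA replication and G1/S at the bottom.

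After SAMD9L and IFIT2 the largest rises were of the sensors and effectors. IFIT3, a partner of IFIT2, had 8981 and 9791 normalised counts in siEZH2 libraries, against 3595 and 3953 in siControl libraries, 2.49-fold higher (1.26 ± 0.08, limma adjusted p = 3.5e-08). IFIT1, which binds RNA that lacks a host cap, had 3807 and 4191 against 1881 and 1926 (0.97 ± 0.07). DDX60, a helicase that aids RNA sensing, had 2638 and 2789 against 1212 and 1355 (0.95 ± 0.06). XAF1, a pro-apoptotic antagonist of XIAP, had 416 and 385 against 111 and 145 (0.89 ± 0.07). The double-stranded RNA sensors IFIH1 (0.59 ± 0.07) and DDX58 (0.63 ± 0.06) rose, and so did SAMD9 (0.70 ± 0.06), OAS2 (0.70 ± 0.07), which makes the activator of RNase L, and BST2 (0.56 ± 0.07), which tethers virus particles to the cell.

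The transcription factors of the pathway moved unevenly. IRF9 had 419.7 and 420 normalised counts in siEZH2 libraries, against 175 and 189.9 in siControl libraries, 2.30-fold higher (0.69 ± 0.06). IRF1 changed by 0.34 ± 0.06, while STAT2 did not pass (-0.05 ± 0.06, limma adjusted p = 0.569). Of the classical effectors, MX1 (0.20 ± 0.07) and ISG15 (0.33 ± 0.12, with 2496 and 3545 in siEZH2 and 2236 and 2405 in siControl libraries) rose, and the ISG15 ligase HERC5 fell (-0.22 ± 0.07). The MX1 and ISG15 calls were lost without siControl replicate 1 (0.17 and 0.28), siControl replicate 2 (0.23 and 0.37) or siEZH2 replicate 2 (0.16 and 0.10), and that of HERC5 without siControl replicate 1 (-0.16) or siEZH2 replicate 1 (-0.16). The RNA-sensing kinase EIF2AK2 did not pass (-0.07 ± 0.06). Transcripts of the interferons themselves were at the floor: IFNB1 and IFNA1 were at 0 in all 4 libraries, and IFNL1 was at 0 in both siEZH2 libraries and at 0 and 0.8 in the siControl libraries.

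The ISRE was searched in promoter windows of 300 bases, from 250 before to 50 after a RefSeq transcription start (GRCh38.p14), as the letters GAAANNGAAA on both strands. It occurred in 2.74% of the 9862 tested genes with a window and in 25 of 39 windows of the interferon list (64.1%). Of the 25 genes with a match 21 rose and 1 fell (median 0.41), and of the 14 without a match 12 rose and none fell (median 0.46). A match is a description of the letters and not a shown binding site. The 4 interferon genes with a match and the largest rises are shown, with the match in capitals, each on its own coding strand.
IFIT3, chr10:89327801-89327924, plus strand: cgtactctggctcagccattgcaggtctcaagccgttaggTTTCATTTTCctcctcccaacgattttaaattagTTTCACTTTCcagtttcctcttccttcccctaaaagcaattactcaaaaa
IFIT1, chr10:89392467-89392569, plus strand: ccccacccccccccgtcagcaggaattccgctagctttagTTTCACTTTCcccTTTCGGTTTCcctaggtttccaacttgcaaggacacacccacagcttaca
DDX60, chr4:168318756-168318880, minus strand: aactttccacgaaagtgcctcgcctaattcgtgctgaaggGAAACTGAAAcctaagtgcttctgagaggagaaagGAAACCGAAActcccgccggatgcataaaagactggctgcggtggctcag
SAMD9, chr7:93118066-93118155, minus strand: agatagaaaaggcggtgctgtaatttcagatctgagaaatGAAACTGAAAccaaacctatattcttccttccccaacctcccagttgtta
IFIT3 and IFIT1 each carry a pair of matches that read on the opposite strand, DDX60 a pair on the coding strand and SAMD9 a single one.

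Antigen presentation genes rose as well. This pathway trims proteins into peptides and shows them on class I molecules at the cell surface. Of 30 tested genes 24 rose and 2 fell, with a median of 0.26. Without siControl replicate 1 the same fit called 13 that rose. The largest rise was CANX, the endoplasmic reticulum chaperone calnexin, with 45813 and 49098 normalised counts in siEZH2 libraries, against 14076 and 13927 in siControl libraries, 3.39-fold higher (1.74 ± 0.06). HLA-E, a ligand of natural killer cell receptors, had 7614 and 8296 against 3816 and 4044 (0.97 ± 0.06). The immunoproteasome subunit PSMB9 (0.74 ± 0.08), the peptide transporter TAP1 (0.64 ± 0.06) and the trimming enzyme ERAP2 (0.72 ± 0.06) rose too.

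The class I heavy chains HLA-B and HLA-C and their partner B2M rose by small steps: HLA-B by 0.24 ± 0.07, HLA-C by 0.29 ± 0.09 and B2M by 0.17 ± 0.06. All 3 calls were lost without siControl replicate 1 (0.21, 0.27 and 0.16), those of HLA-C (0.31) and B2M (0.18) without siControl replicate 2, that of HLA-C without siEZH2 replicate 1 (0.28), and those of HLA-B (0.15) and B2M (0.11) without siEZH2 replicate 2. The co-activator NLRC5 (0.59 ± 0.08) and the checkpoint ligands CD274, known as PD-L1 (0.46 ± 0.07, 1387 and 1337 against 956 and 896), and PDCD1LG2, known as PD-L2 (0.64 ± 0.07), rose. MICB, a stress ligand of the activating receptor NKG2D, fell to 1341 and 1348 in siEZH2 libraries, against 2311 and 2345 in siControl libraries (-0.69 ± 0.06). HLA genes are near-identical in stretches, and the sources used here do not say how shared reads were split between them.

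Among genes of the mesenchymal state and its regulators 18 of 30 rose and 4 fell, with a median of 0.33. At least 1.5-fold on the log2-like scale were 8 of the rises and 2 of the falls, and the largest fall was CNN2 (-2.03 ± 0.06). Beside CDH11 and LOX, TNC, the matrix glycoprotein tenascin C, had 1545 and 1682 normalised counts in siEZH2 libraries, against 322 and 351 in siControl libraries, 4.79-fold higher (1.69 ± 0.06). ZEB1, a repressor of epithelial genes, had 3216 and 3284 against 1261 and 1198 (1.24 ± 0.05, limma adjusted p = 1.1e-09), and SNAI2 rose (0.33 ± 0.05). TWIST1 was under 1 normalised count in all 4 libraries, and SNAI1 had 12.5 and 14.8 against 15.2 and 33.1, without passing. VIM (0.57 ± 0.07), the fibronectin gene FN1 (0.52 ± 0.07) and the hyaluronan receptor CD44 (0.62 ± 0.08) rose, as did PDGFRB (172 and 215 against 35 and 40.7, 0.87 ± 0.07). N-cadherin, CDH2, was low and fell (71.9 and 60.2 against 119.9 and 128, -0.34 ± 0.06), and the receptor kinase AXL did not pass, with 48324 and 45117 against 46635 and 45898.

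Matrix genes rose, with 26 of 38 up, 3 down and a median of 0.38. COL5A1, which nucleates collagen fibrils, had 7544 and 7476 normalised counts in siEZH2 libraries, against 2709 and 2794 in siControl libraries, 2.73-fold higher (1.36 ± 0.07). FBN1, the microfibril protein fibrillin, had 1010.1 and 1025 against 352 and 297 (1.17 ± 0.07). COL1A2, a chain of type I collagen, had 252 and 259 against 38.8 and 44.1, 6.16-fold higher (1.05 ± 0.05), while its partner chain COL1A1 did not pass (173 and 162 against 184 and 183, -0.07 ± 0.07). LTBP1, which stores latent TGF-beta (1.04 ± 0.06), COL13A1 (1.01 ± 0.06), COL6A1 (0.84 ± 0.09), COL6A3 (0.80 ± 0.06) and the laminin chain LAMB1 (0.74 ± 0.05) rose. THBS1 fell. Among fibroblast markers, which could mark another cell type, 1 of 4 tested rose (PDGFRB), and the defining marker DCN had 0 and 1.4 in siEZH2 and 1 and 3.4 in siControl libraries.

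Matrix proteases and their inhibitors rose together, with 22 of 34 up, 4 down and a median of 0.37. After PLAT came MMP14, the membrane collagenase that activates other metalloproteinases, with 18099.7 and 21038 normalised counts in siEZH2 libraries, against 8358 and 8956 in siControl libraries, 2.26-fold higher (1.15 ± 0.07). The sheddases ADAM19 (1.12 ± 0.06), ADAM17 (1.03 ± 0.06) and ADAM8 (0.98 ± 0.06) rose. TIMP3, a metalloproteinase inhibitor described elsewhere as repressed by PRC2, had 13479.6 and 12284 against 5915 and 5775 (1.10 ± 0.07), and TIMP1 (0.61 ± 0.06), TIMP2 (0.29 ± 0.07) and the membrane inhibitor RECK (0.56 ± 0.06) rose as well. The urokinase receptor PLAUR (0.72 ± 0.06) and urokinase itself, PLAU (0.35 ± 0.06), rose. ADAMTS12 fell (3705 and 3580.3 against 5747 and 5585, -0.60 ± 0.07).

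Integrins, the receptors for matrix, included 12 that rose and 1 that fell among 15 tested, with a median of 0.44. ITGA6 and ITGB4, which pair to anchor cells to laminin, both rose: ITGA6 had 26759 and 26794 against 15229.8 and 13919 (0.87 ± 0.06) and ITGB4 6637 and 6771 against 3525 and 3704 (0.84 ± 0.06). ITGA5, the alpha chain of the fibronectin receptor (0.74 ± 0.07), the common beta chain ITGB1 (0.48 ± 0.07) and the collagen receptor chain ITGA2 (0.57 ± 0.06) rose. ITGA3, another laminin receptor chain, was the fall, with 14964 and 15139.8 in siEZH2 and 26561 and 26949 in siControl libraries (-0.82 ± 0.05, limma adjusted p = 2.9e-08). Axon guidance genes, which steer cell contacts outside the nervous system as well, included 24 that rose and 1 that fell among 35 tested (median 0.31). The semaphorin receptors PLXNB2 (0.95 ± 0.09) and PLXND1 (0.72 ± 0.06), the semaphorin SEMA4B (0.82 ± 0.08), the receptor kinase EPHB2 (0.92 ± 0.07) and the ephrin EFNB2 (2639 and 2689 against 1349.6 and 1326, 0.87 ± 0.06) led them, and SLIT2 fell (-0.33 ± 0.06).

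Of 40 tested epithelial genes 8 rose and 20 fell, with a median of -0.18. A stricter filter, which drops genes with low values from the test, called 6 that rose and 13 that fell, with a median of -0.07. EPCAM, an epithelial adhesion molecule, had 518 and 556 normalised counts in siEZH2 libraries, against 1410 and 1297 in siControl libraries, 2.52-fold lower (-1.03 ± 0.07, limma adjusted p = 3.2e-08). The tricellular junction proteins LSR (251 and 240.4 against 753 and 764, -1.07 ± 0.07) and MARVELD2 (-0.88 ± 0.06), the desmosomal plaque genes PKP2 (-0.89 ± 0.07) and DSP (-0.73 ± 0.07) and the epithelial splicing regulator ESRP2 (-0.88 ± 0.07) fell. E-cadherin, CDH1, which this line hardly expresses and which is often named as a gene that PRC2 represses, stood at 2.9 and 5.7 in siEZH2 and 24.5 and 23.8 in siControl libraries and fell (-0.35 ± 0.06). Others went up: the epithelial factor EHF had 4349.9 and 4592 against 2227 and 2226 (0.93 ± 0.06), and the keratin KRT19 rose (0.76 ± 0.08) while KRT18 fell (-0.65 ± 0.06) and KRT8 did not pass (0.01 ± 0.06).

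DNA replication and G1/S genes fell. Most are targets of E2F factors, which switch on the replication machinery as cells leave G1. Of 47 tested genes 4 rose and 33 fell, with a median of -0.24. MCM3, a subunit of the replicative helicase, had 6053 and 6152 normalised counts in siEZH2 libraries, against 13147 and 13697 in siControl libraries, 2.20-fold lower (-1.10 ± 0.06, limma adjusted p = 5.1e-09). CCND1, the G1 cyclin D1, had 6387 and 6258 against 14005 and 13644 (-1.10 ± 0.05). POLA1, the polymerase that primes DNA synthesis, had 1557 and 1639 against 3892 and 3526 (-1.09 ± 0.06). Cyclin E1, CCNE1 (-0.75 ± 0.07), MCM6 (-0.74 ± 0.07), MCM2 (-0.54 ± 0.06), the uracil glycosylase UNG (-0.70 ± 0.06), the phosphatase CDC25A (-0.62 ± 0.05) and E2F1 (-0.27 ± 0.06) fell.

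Of the 4 rises in the list 3 are named. GINS1, a helicase cofactor, had 1623 and 1656 in siEZH2 and 701 and 709.9 in siControl libraries (0.99 ± 0.06), the polymerase clamp PCNA changed by 0.41 ± 0.07 and cyclin D3, CCND3, by 0.52 ± 0.06. An E2F motif, searched as TTTNNCGC on both strands, occurred in 11% of all windows and in 21 of 38 windows of the list (55.3%). Of the 21 genes with a match 16 fell and 2 rose (median -0.34), and of the 17 without a match 12 fell and 1 rose (median -0.29). The 3 genes with a match and the largest falls are shown with the matches in capitals, and in MCM6 matches on the opposite strands overlap.
MCM3, chr6:52284699-52284956, minus strand: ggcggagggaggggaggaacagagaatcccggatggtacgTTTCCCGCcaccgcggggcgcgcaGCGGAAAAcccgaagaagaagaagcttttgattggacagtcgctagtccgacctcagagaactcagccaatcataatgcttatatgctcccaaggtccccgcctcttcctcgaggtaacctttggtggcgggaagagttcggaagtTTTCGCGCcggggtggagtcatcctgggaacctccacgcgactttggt
POLA1, chrX:24693741-24693828, plus strand: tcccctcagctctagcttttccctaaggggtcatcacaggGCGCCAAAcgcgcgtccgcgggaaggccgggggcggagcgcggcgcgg
MCM6, chr2:135876482-135876635, minus strand: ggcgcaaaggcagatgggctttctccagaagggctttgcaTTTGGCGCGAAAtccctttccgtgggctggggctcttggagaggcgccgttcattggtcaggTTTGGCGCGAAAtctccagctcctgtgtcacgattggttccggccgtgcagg

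Of 44 tested mitotic genes 14 rose and 8 fell, with a median of 0.08. Cyclin A2, CCNA2, had 5584 and 5768 normalised counts in siEZH2 libraries, against 3735 and 3651 in siControl libraries (0.59 ± 0.05), and the cytokinesis motor KIF20A (0.57 ± 0.06) and the checkpoint protein BUB3 (0.47 ± 0.05) rose. Survivin, BIRC5, had 2518 and 2535 against 4448 and 4032 (-0.69 ± 0.06), and KIF23 (-0.43 ± 0.05), the mitotic transcription factor FOXM1 (-0.39 ± 0.08) and the proliferation marker MKI67 (-0.31 ± 0.05) fell.

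Inhibitors of cyclin-dependent kinases and p53 targets were split, with 10 of 26 up, 9 down and a median of 0.05. TP53INP1, a p53-linked stress gene, had 508 and 479 normalised counts in siEZH2 libraries, against 70.1 and 89.9 in siControl libraries, 6.17-fold higher (1.35 ± 0.07). CDKN1C, called p57, had 174 and 160 against 67.6 and 48.4 (0.60 ± 0.07), and CDKN1B, called p27 (0.58 ± 0.05), CDKN2C (0.56 ± 0.08), SESN1 (0.92 ± 0.07) and RRM2B (0.84 ± 0.06) rose. CDKN1A, called p21 (-0.28 ± 0.06), and the DNA damage gene GADD45A (575 and 601 against 1224 and 1139, -0.78 ± 0.07) fell. CDKN2A and CDKN2B were at 0 in all 4 libraries, so they give no reading of a change, and the reason was not tested.

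Genes of DNA repair by homologous recombination included 18 that fell and 5 that rose among 35 tested (median -0.16), with 3 rises without siControl replicate 1 and 1 without siControl replicate 2 or siEZH2 replicate 2. XRCC2, which loads the strand-exchange filament, had 1277 and 1210.2 against 2332 and 2329.8 (-0.79 ± 0.05), and the checkpoint kinase CHEK1 (-0.46 ± 0.06) and BRCA2 (-0.35 ± 0.07) fell, while BRCA1 (-0.12 ± 0.07) did not pass. Replication-dependent histone mRNAs, which lack a poly(A) tail in dividing cells and are partly captured here, included 8 that fell and 0 that rose among 14 tested (median -0.20). HIST1H4C had 4162 and 4756 against 6422 and 6478 (-0.51 ± 0.10). Leaving out siControl replicate 1 or siEZH2 replicate 1 gave 4 histone falls, and the median was -0.13 without siEZH2 replicate 1. Cytosolic ribosomal protein genes included 23 that fell and 0 that rose among 49 tested, by small steps (median -0.14), and the count was 15 with a replicate block, 9 without siControl replicate 1, 12 without siControl replicate 2 and 11 without siEZH2 replicate 1.

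Genes that earlier work describes as repressed by PRC2, a list drawn from general knowledge and not from these cells, went both ways. Of 27 tested 7 rose and 11 fell, with a median of -0.04. TIMP3, CDKN1C, ITGA2 and DAB2IP (2020.1 and 1834 against 1342 and 1386, 0.43 ± 0.06), a brake on RAS and survival signals, rose, together with KLF2 (0.29 ± 0.06) and PPARG (0.42 ± 0.06). The WNT antagonist DKK1 had 6838 and 7007 normalised counts in siEZH2 libraries, against 13950 and 13619.8 in siControl libraries, 1.99-fold lower (-0.97 ± 0.06), and SLIT2, RUNX1 (-0.36 ± 0.09) and IL24 fell. RUNX3 and WNT5A had at most 4.8 normalised counts in any of the 4 libraries, and SFRP1 had 12.5 and 9.9 against 9.5 and 11.9, without passing.

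Of 39 HOX genes, the textbook Polycomb targets, 13 had enough signal over the libraries of both lines to be tested. By limma 0 rose and 2 fell in MDA-MB-231: HOXB9 (167 and 159.7 against 287 and 317, -0.47 ± 0.06) and HOXD1 (-0.28 ± 0.06). The median was 0.00, and -0.38 when the filter and fit used only the 4 MDA-MB-231 libraries. Other developmental transcription factors included 16 that rose (31.4%) and 8 that fell (15.7%) among 51 tested, with a median of 0.00. Over all tested genes the shares were 29.4% and 27.1%. SOX4, which supports mesenchymal change, had 400.4 and 323 normalised counts in siEZH2 libraries, against 115 and 91.6 in siControl libraries, 3.51-fold higher (0.92 ± 0.07), and FOXF2 (0.67 ± 0.07), RUNX2 (0.62 ± 0.10) and KLF5 (0.58 ± 0.06) rose. A stricter filter, which drops genes with low values from the test, called 9 of the developmental factors as risen and 8 as fallen.

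NF-kB is a family of paired factors, held in the cytoplasm by IkB proteins until kinases release them, and RELB with NFKB2 forms its non-canonical arm. Of 21 tested subunits, inhibitors, kinases and adaptors 3 rose and 11 fell, with a median of -0.19, and of -0.08 without siControl replicate 2. RELB had 184 and 206 normalised counts in siEZH2 libraries, against 632 and 589 in siControl libraries, 3.13-fold lower (-1.02 ± 0.08), the largest change of the list. NFKB1 had 1817 and 1907 against 3059 and 2995 (-0.63 ± 0.05) and NFKB2 1735 and 1705 against 2112 and 2241 (-0.30 ± 0.07), while RELA (-0.08 ± 0.06) and REL (0.13 ± 0.07) did not pass.

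Upstream, the kinase of the non-canonical arm MAP3K14, called NIK, had 3147 and 2786 against 3787 and 4181 (-0.40 ± 0.07). The ligases that keep it low moved unevenly, with BIRC2 (3468 and 3641 against 6365 and 5914, -0.74 ± 0.06), BIRC3 (-0.39 ± 0.05) and TRAF2 (-0.47 ± 0.08) down and TRAF3 up (0.19 ± 0.05), a call lost without siControl replicate 1 (0.18). Among inhibitors NFKBIE (-0.46 ± 0.07) and NFKBIB (-0.49 ± 0.07) fell, NFKBIA, the classical IkB, rose (0.26 ± 0.06), and so did the deubiquitinase CYLD (2106 and 2189.5 against 1485 and 1406, 0.50 ± 0.05). The kB motif matched 6.56% of all windows and 8 of 18 windows of the list (44.4%). Of the 8 genes with a match 2 rose and 3 fell (median -0.01), and of the 10 without a match 1 rose and 6 fell (median -0.25). The 2 genes with a match and the largest falls, NFKB1 and BIRC3, are shown with the matches in capitals.
NFKB1, chr4:102501270-102501359, plus strand: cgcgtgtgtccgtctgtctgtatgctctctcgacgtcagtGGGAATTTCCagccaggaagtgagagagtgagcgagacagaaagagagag
BIRC3, chr11:102317245-102317398, plus strand: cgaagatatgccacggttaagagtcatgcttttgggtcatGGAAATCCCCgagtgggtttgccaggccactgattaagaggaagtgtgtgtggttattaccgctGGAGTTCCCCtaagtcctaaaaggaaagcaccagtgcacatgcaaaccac

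Of 29 tested cytokines and partners 7 rose and 8 fell, with a median of -0.02. IL6 had 227 and 213 normalised counts in siEZH2 libraries, against 579.9 and 636 in siControl libraries, 2.77-fold lower (-0.92 ± 0.07), and CSF2 (82 and 92.7 against 179 and 219.5, -0.52 ± 0.07), CXCL16 (51 and 44.6 against 138 and 144, -0.56 ± 0.07), IL11 (-0.39 ± 0.07) and IL1A (-0.31 ± 0.07) fell. CSF1, the macrophage growth factor, had 10683 and 9849 against 5751 and 6099 (0.77 ± 0.06), and the soluble pattern receptor PTX3 had 2304 and 2508 against 1157 and 1108 (0.94 ± 0.06). The neutrophil chemokines were low and did not pass: CXCL8 had 93.6 and 82.7 against 98.7 and 88.2 and CXCL1 32.8 and 28.3 against 27.6 and 27.9.

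Genes of the stress and amino acid response included 15 that fell and 6 that rose among 33 tested (median -0.09), and without siControl replicate 2 the fit called 2 that rose. ATF4, the transcription factor at the centre of this response, had 4139 and 4281 normalised counts in siEZH2 libraries, against 8475 and 8447 in siControl libraries, 2.01-fold lower (-0.96 ± 0.05). Of the other members PPP1R15A, which restores translation, had 3041 and 3507 against 7371 and 7649.6 (-1.14 ± 0.07), ATF3 84.4 and 98.9 against 299.6 and 287 (-0.80 ± 0.07), and DDIT3 (-0.60 ± 0.08), the cationic amino acid importer SLC7A1 (-0.68 ± 0.08) and SLC7A11 fell, while the serine enzyme PSAT1 (0.57 ± 0.08) and EDEM1 (3333 and 2854 against 1523 and 1434, 0.94 ± 0.07), which feeds misfolded proteins to degradation, rose.

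Redox genes of the NRF2 set were mixed, with 5 of 28 up and 9 down (median -0.03), and 3 rose without siEZH2 replicate 2. GCLC, the catalytic subunit of glutathione synthesis, had 1099 and 1049 against 1826 and 1893 (-0.67 ± 0.05) and its partner GCLM 4342 and 4333 against 2823 and 2697 (0.61 ± 0.05), so the 2 subunits moved in opposite directions. TXNRD1 fell (-0.56 ± 0.06), and catalase, CAT (0.62 ± 0.06), and AKR1C1 (0.64 ± 0.09) rose. HMOX1 did not pass (0.11 ± 0.08).

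Hypoxia and glycolysis genes included 18 that rose and 9 that fell among 39 tested (median 0.15, and 0.08 without siEZH2 replicate 2). BNIP3L, a receptor for removal of mitochondria, had 3926 and 3908 normalised counts in siEZH2 libraries, against 1520.3 and 1434 in siControl libraries, 2.65-fold higher (1.26 ± 0.06), and P4HA2 (0.81 ± 0.07), a collagen hydroxylase, DDIT4 (0.77 ± 0.06), ANGPTL4 (0.76 ± 0.08), HK2 (0.38 ± 0.09) and VEGFA (0.37 ± 0.05) rose. Against them ADM, the glycolytic regulator PFKFB3 (749 and 789.5 against 1903 and 1913, -1.08 ± 0.05) and lactate dehydrogenase LDHA (24144 and 24386 against 36719.8 and 36362, -0.59 ± 0.06) fell. Of 67 respiratory chain subunits encoded in the nucleus 12 rose (17.9%) and 6 fell (9.0%), with a median of 0.04. Over all tested genes the shares were 29.4% and 27.1%. NDUFA5 (0.71 ± 0.05) rose and NDUFA3 (-0.59 ± 0.07) fell most, and without siControl replicate 1 the counts were 6 up and 3 down, and without siControl replicate 2 there were 3 down.

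A list named for fatty acid synthesis and desaturation also held enzymes of activation and mitochondrial import. Of its 28 tested genes 16 rose and 6 fell (median 0.20). The fatty acid activating enzymes ACSL4 (6062 and 6296 against 3513 and 3419.9, 0.79 ± 0.05) and ACSL3 (0.54 ± 0.05) and the mitochondrial importer CPT2 (0.66 ± 0.06) rose. The synthase FASN (-0.49 ± 0.12) and the desaturases SCD (-0.48 ± 0.07) and FADS1 (-0.51 ± 0.05) fell, and the FASN call was lost without siControl replicate 1 (-0.45). Of 32 cholesterol genes 8 rose and 9 fell (median -0.07): the sterol sensor INSIG1 (679.6 and 690.1 against 1575 and 1443, -0.91 ± 0.06) and DHCR7 (-0.53 ± 0.06) fell, and the exporter ABCA1 (0.82 ± 0.06) rose. Without siControl replicate 1 or siEZH2 replicate 2, 5 cholesterol genes rose. Lysosome and autophagy genes included 10 that rose (29.4%) and 6 that fell (17.6%) among 34 tested, against 29.4% and 27.1% of all tested genes. LAMP2 (7597 and 7354 against 3248 and 3239, 1.14 ± 0.05) and the regulator TFEB (0.70 ± 0.07) rose and GABARAPL1 (477 and 506 against 1211 and 1279, -1.02 ± 0.06) fell. CD68, a lysosomal protein that macrophages also carry, changed by 0.97 ± 0.09.

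In the TGF-beta and BMP pathway 13 of 35 rose and 8 fell (median 0.09), with 5 falls without siControl replicate 2. The co-receptor TGFBR3 had 2931 and 2821 normalised counts in siEZH2 libraries, against 661 and 609.8 in siControl libraries, 4.53-fold higher (1.82 ± 0.06), the BMP effector SMAD5 2885 and 2743 against 875 and 851 (1.46 ± 0.06) and the BMP antagonist NOG 730.3 and 822 against 307 and 302 (0.92 ± 0.07), while the ligands TGFB2 (-0.74 ± 0.05) and GDF15 (-0.66 ± 0.06) fell. In the WNT pathway 12 of 31 rose and 6 fell (median 0.05). Beta-catenin, CTNNB1, had 18163 and 18975 against 8654 and 8502 (1.09 ± 0.05), and its feedback target AXIN2 (144 and 144 against 42.6 and 34.8, 0.66 ± 0.06) and the receptor FZD1 (0.80 ± 0.07) rose.

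In the Notch pathway 9 of 22 rose and 5 fell (median 0.11). The DNA-binding factor RBPJ (3704 and 3708 against 1686 and 1634, 1.05 ± 0.06), the receptor-modifying enzyme LFNG (0.92 ± 0.06) and the ligand JAG1 (0.65 ± 0.06) rose, and the receptor NOTCH2 (-0.71 ± 0.05) fell. Targets of YAP and TEAD included 14 that fell and 6 that rose among 30 tested (median -0.10, and -0.16 without siEZH2 replicate 1). The kinase NUAK2 had 77.2 and 53 normalised counts in siEZH2 libraries, against 478 and 438 in siControl libraries, 7.03-fold lower (-1.38 ± 0.07), and ANKRD1 (12964 and 14548 against 27616 and 25989, -0.95 ± 0.07), CYR61 (6103 and 6599 against 11594 and 11909, -0.86 ± 0.06) and CTGF (-0.32 ± 0.07) fell, while tissue factor, F3, rose (0.87 ± 0.05).

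ERK feedback and AP-1 genes were mixed, with 8 of 33 up and 10 down (median -0.02), and 6 down without siControl replicate 1 or siControl replicate 2. The ETS factor ETV1 had 1598 and 1580.1 normalised counts in siEZH2 libraries, against 281 and 286 in siControl libraries, 5.61-fold higher (1.82 ± 0.07), and JUN rose (0.63 ± 0.08), while MYC (4059.6 and 3961 against 6532 and 6843, -0.70 ± 0.06), DUSP6 (-0.45 ± 0.05) and DUSP5 (-0.50 ± 0.07) fell. Ligands and receptors of the EGF family and other receptor kinases included 15 that rose and 3 that fell among 30 tested (median 0.15), with EGFR (9086 and 8118 against 5516 and 5265, 0.65 ± 0.06), MET (0.48 ± 0.05), NRP2 (0.65 ± 0.07) and EREG (0.51 ± 0.06) up and TGFA down (-0.51 ± 0.07).

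Survival and death genes included 16 that rose and 9 that fell among 38 tested (median 0.10, and 0.03 without siEZH2 replicate 2). APAF1, the scaffold of the apoptosome, had 1884 and 1823 normalised counts in siEZH2 libraries, against 398 and 333 in siControl libraries, 5.07-fold higher (1.80 ± 0.07, limma adjusted p = 1.9e-10). The death receptor TNFRSF10A (0.80 ± 0.07) and the caspase inhibitor XIAP (1579 and 1463 against 713 and 665, 0.92 ± 0.06) rose. RIPK1 (1304 and 1318 against 2674 and 2587, -0.88 ± 0.06), MCL1 (-0.60 ± 0.06) and cytochrome c, CYCS (-0.61 ± 0.05), fell. In the small RNA machinery 3 of 14 rose and 5 fell, with AGO4 (572 and 546 against 173 and 186, 0.99 ± 0.07) up and DICER1 (-0.47 ± 0.06) down, and AGO2, the slicing Argonaute on which siRNAs act, did not pass (0.07 ± 0.06).

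The siEZH2 experiment in SUM149 cells shows where MDA-MB-231 differed. In SUM149 29.4% of genes rose and 28.6% fell, with EZH2 at -2.00 ± 0.07. Of the 740 genes that rose at least 1.5-fold in MDA-MB-231, 661 (89.3%) also rose in SUM149 and 8 fell there, and of the 408 that fell, 365 (89.5%) fell and 7 rose. Rises past 1.5-fold in both lines numbered 377, which is 50.9% of those in MDA-MB-231 and 45.9% of the 822 in SUM149, and falls numbered 193, which is 47.3% of those in MDA-MB-231 and 50.8% of the 380 in SUM149. The limma interaction test called a difference between the lines for 2662 genes, 21.5% of those tested (1281 with the more positive change in MDA-MB-231 and 1381 with the more negative, against 716 and 1322 by edgeR on recovered counts), and for 1611 without siControl replicate 1, 1683 without siControl replicate 2 of MDA-MB-231 and 1772 without siEZH2 replicate 2 of SUM149. Since the 740 and 408 were picked for their size in MDA-MB-231, the size of the same genes in SUM149 is given as a description: medians of 0.76 in MDA-MB-231 and 0.59 in SUM149 for rises, and of -0.75 and -0.56 in the same order for falls.

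Among genes called in MDA-MB-231, the interaction was most positive for PLAT (1.91 ± 0.06 in MDA-MB-231, 0.18 ± 0.06 in SUM149, difference 1.73 ± 0.08, limma adjusted p = 1.1e-07), SAMD9L (1.93 ± 0.06 and 0.28 ± 0.06, difference 1.65 ± 0.09) and IFIT2 (1.90 ± 0.06 and 0.37 ± 0.06, difference 1.53 ± 0.09). For the last pair the call rests on the scale: their levels in SUM149 are so low that the log2-like scale compresses the fold. SAMD9L had 13.9 and 17.1 normalised counts in siEZH2 and 3.2 and 2.2 in siControl libraries of SUM149, and IFIT2 had 25.5 and 26.3 against 4.9 and 3.4. In an edgeR fit of the recovered counts, which compares folds, the difference turned to -0.29 ± 0.53 for SAMD9L and -0.48 ± 0.46 for IFIT2 and was not called, while that of PLAT was 1.78. CPA4, a carboxypeptidase, had 1382 and 1392 normalised counts in siEZH2 libraries, against 639 and 673 in siControl libraries and rose in MDA-MB-231 (0.86 ± 0.06) but fell in SUM149 (-0.61 ± 0.06). SLCO4A1, an organic anion transporter, did the same (0.71 ± 0.07 in MDA-MB-231, -0.66 ± 0.07 in SUM149). The prolactin receptor PRLR had 497 and 426 in siEZH2 and 103 and 71.8 in siControl MDA-MB-231 libraries (1.24 ± 0.08) and did not pass in SUM149 (-0.15 ± 0.08).

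At the other end the hyaluronan synthase HAS2 (-0.32 ± 0.07 in MDA-MB-231, 1.28 ± 0.07 in SUM149, difference -1.61 ± 0.10), the actin nucleator FMN1 (-0.65 ± 0.08 and 0.91 ± 0.08), FAM102B (-0.40 ± 0.06 and 1.13 ± 0.06) and the ERK phosphatase DUSP6 (-0.45 ± 0.05 and 1.01 ± 0.05) fell in MDA-MB-231 and rose in SUM149. ADM fell in both, by far more in MDA-MB-231 (-1.78 ± 0.09, against -0.29 ± 0.09 in SUM149). Each of these differences passed the interaction test and kept its direction in the fit of recovered counts.

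By list, 42 of 50 interferon genes rose in MDA-MB-231 and 34 in SUM149. Their interaction calls (15 higher and 6 lower in MDA-MB-231) include IFIT1, IFIT2, IFIT3, SAMD9L and XAF1, whose direction turned in the fit of recovered counts, and OAS2 and DDX58, which were not called in it. Of the mitotic genes, 14 of 44 rose and 8 fell in MDA-MB-231, against 7 up and 22 down in SUM149, and 17 had an interaction call, all 17 with the more positive change in MDA-MB-231. Of 47 tested replication and G1/S genes 11 had an interaction call, a share near the 21.5% over all tested genes. All 11 had the more negative change in MDA-MB-231. Of 38 tested matrix genes 28 had an interaction call, and 23 of these had the smaller or more negative change in MDA-MB-231. The median of the matrix genes was 0.38 in MDA-MB-231, against 0.68 in SUM149. The integrin ITGA3 fell in MDA-MB-231 (-0.82 ± 0.05) and rose in SUM149 (0.36 ± 0.05, difference -1.18 ± 0.07). RELB fell further in MDA-MB-231 (-1.02 ± 0.08) than in SUM149 (-0.50 ± 0.08, difference -0.52 ± 0.11, limma adjusted p = 0.00443).

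**Figure D5:**
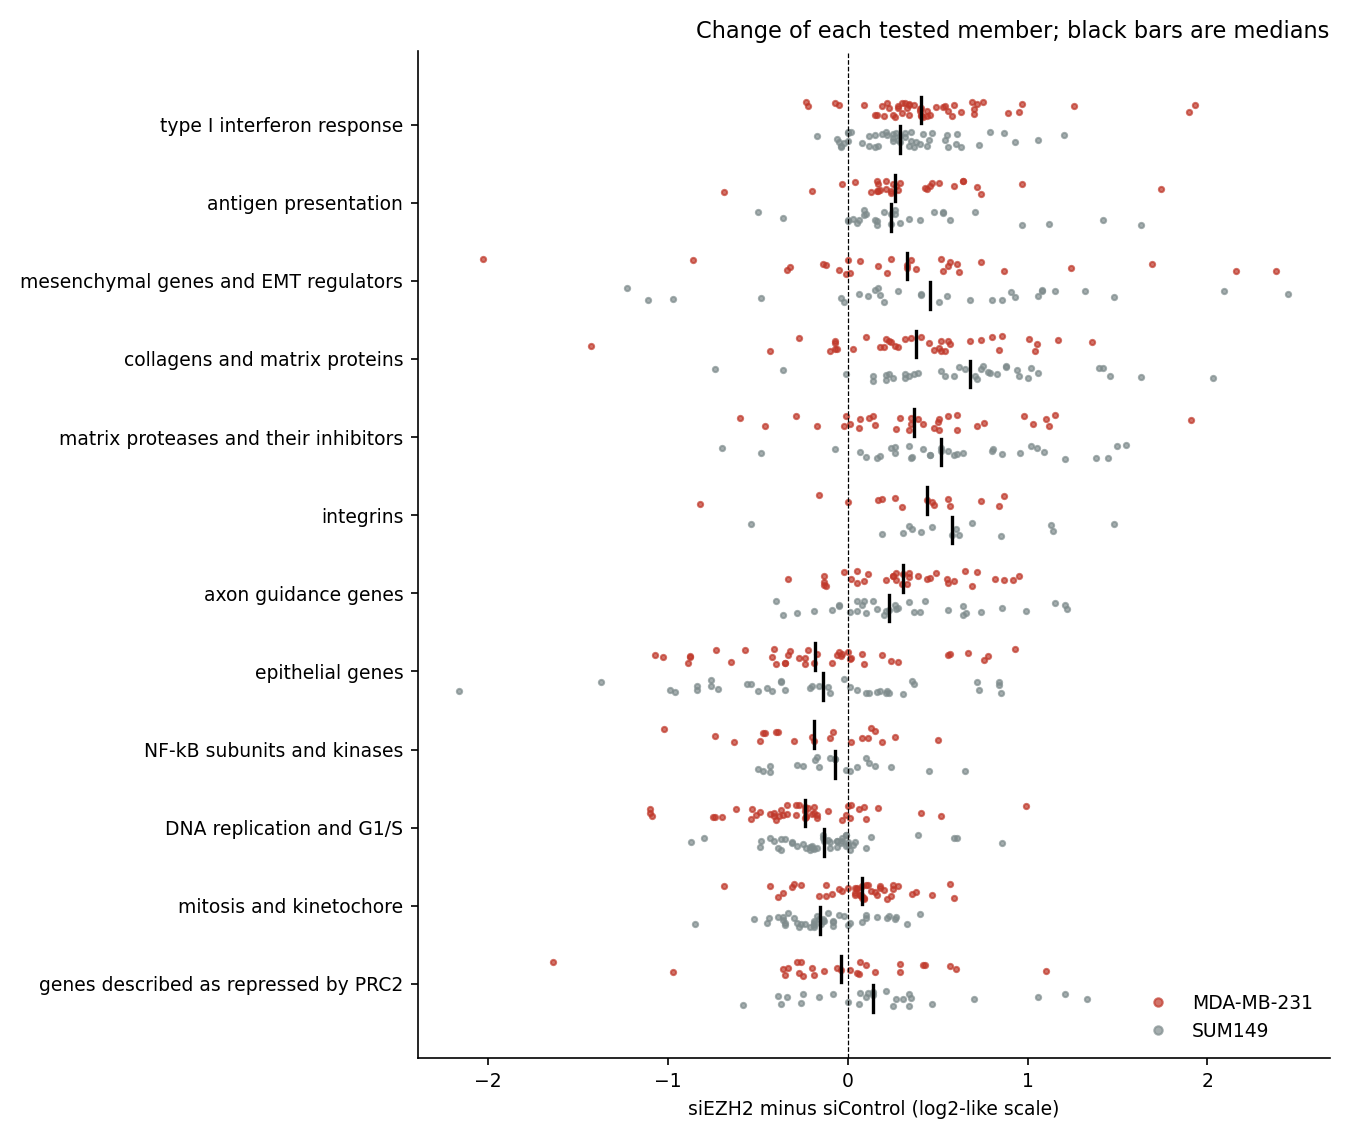
Change under siEZH2 on the log2-like scale for each tested member of 12 gene lists, in MDA-MB-231 (upper, red) and SUM149 (lower, grey), with black bars at the medians. The interferon medians lie at 0.41 and 0.29, the mitotic medians on either side of 0 at 0.08 and -0.16.

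In the separate experiment on the NF-kB subunits, MDA-MB-231 cells received siRelA or siRelB with their own controls, and the same genes can be read there. Over its 15930 tested genes, siRelA raised 8.82% and lowered 10.2% by edgeR, and siRelB raised 7.45% and lowered 10.8%. With scaling by library size alone the balance turned, to 1904 up and 1207 down under siRelA, against 1405 and 1626 in the fit above, and to 1674 up and 1433 down under siRelB, against 1187 and 1726. Of the 12 largest rises under siEZH2, 3 rose and 2 fell under siRelA, and 2 rose and 4 fell under siRelB. IFIT2 had 1410 and 1375 counts in siRelA, 500 and 490 in siRelB and 798 and 820 in siControl libraries, a rise under siRelA (0.76 ± 0.11) and a fall under siRelB (-0.46 ± 0.11). PLAT fell under both (-0.43 ± 0.10 under siRelA, -0.46 ± 0.10 under siRelB), LRRC58 (-0.91 ± 0.11) and PTRF (-0.85 ± 0.07) fell under siRelB, MT1E fell under siRelA (-0.92 ± 0.14), and CDKN3 rose under both (0.40 ± 0.11 under siRelA, 0.39 ± 0.11 under siRelB).

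Of the 11 largest falls other than EZH2, 4 rose and 3 fell under siRelA, and 0 rose and 3 fell under siRelB. ADM had 234 and 328 counts in siRelA and 810 and 811 in siControl libraries (-1.54 ± 0.17, edgeR adjusted p = 5.2e-06). IL24 (-0.78 ± 0.18) and FST (-0.48 ± 0.13) fell under siRelA as well, while THBS1 (0.53 ± 0.10), CNOT6 (0.52 ± 0.09), SLC7A11 (0.49 ± 0.10) and PPA2 (0.35 ± 0.11) rose. Under siRelB the falls were FTO (-0.52 ± 0.13), THBS1 (-0.35 ± 0.10) and CNOT6 (-0.30 ± 0.10). EZH2 had 2655 and 2553 counts in siRelA, 2301 and 2418 in siRelB and 2606 and 2417 in siControl libraries and passed in neither. RELB, which fell under siEZH2, had 377 and 295 counts in siRelA, 90 and 107 in siRelB and 923 and 916 in siControl libraries. The siRelA and siRelB comparisons share their control libraries, and leaving out siControl replicate 1 of that experiment lowered the number of called genes to 1624 under siRelA and 1754 under siRelB, and siControl replicate 2 to 1786 and 1520, against 3031 and 2913.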

How the data were processed

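RNA sequencing of 14 libraries was used. The table the authors deposited for siEZH2 holds log2-like values after variance stabilisation, for 27315 gene symbols in 8 libraries, and for the siRelA and siRelB experiment they deposited raw counts for 58735 genes in 6 libraries, per the file headers. The submitters' processing notes name cutadapt, STAR 2.5.2b, Salmon and DESeq2, and, with versions, HISAT2 2.0.5, featureCounts 1.5.0-p3 and DESeq2 1.20.0. The sources used here give neither the transformation settings nor the strand handling. Of the symbols 25069 matched the reference tables, 1108 of them by an older symbol. All per-sample columns in the tables had a sample (0 left out).

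Genes were tested (12356) where 2 or more libraries exceeded the lowest value (7.12) by 1 or more, with limma 3.58.1 (trended variance, 4 groups, 8 libraries, 4 residual degrees of freedom) in R 4.3.3, with Benjamini-Hochberg adjustment over all of them and a threshold of 0.05. The transformation was inverted to normalised counts, and 48.2% to 69.6% of low values fell within 0.05 of whole reads, so recovered reads (17.4 to 38.1 M a library) are approximate. The siRelA and siRelB counts (18.6 to 24.4 M a library, 15930 genes) were tested with edgeR 4.0.16 quasi-likelihood, and DESeq2 1.42.0 was an alternative. Tables and plots used Python 3.11.15, numpy 2.4.6, pandas 2.3.3 and matplotlib 3.10.9. Both fits were tested on simulated data.

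The genes named are EZH2, the 12 largest called rises and 12 largest called falls among protein-coding genes, up to 6 called members of each list by size with further members where their role needs it, and the 6 most positive and 6 most negative called interactions. Some genes that meet this rule are not reported here. The gene lists, members and rule were chosen with earlier results of these data known. Replicate numbers are shared between groups, but same-numbered libraries did not deviate together, so they were not treated as pairs. Alternatives were other filters, scalings, variance settings, a replicate block, count models, and leaving out each library. Promoters came from RefSeq (GRCh38.p14, 250 bases before to 50 after the start).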

Additional observations from a re-analysis of the deposited data

Results flagged for a closer look

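The effect of siEZH2 differed between MDA-MB-231 and SUM149 by limma's interaction test for 2662 genes, 21.5% of those tested. The change was more positive in MDA-MB-231 for 1281 of them and more negative for 1381. The largest rises and falls below were picked for their size in MDA-MB-231, and the difference uses the same values. Larger changes there are thus partly built in, and their number is a description. The differences below are MDA-MB-231 minus SUM149 on the log2-like scale with the standard error of the fit, each with an adjusted p under 0.05.

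Of the largest rises in MDA-MB-231, 10 were larger there: SFXN1 0.86 ± 0.07, LOX 1.07 ± 0.11, LRRC58 0.90 ± 0.09, MGAT2 0.94 ± 0.08, CDKN3 0.84 ± 0.09, SLC31A1 0.85 ± 0.07, SAMD9L 1.65 ± 0.09, PLAT 1.73 ± 0.08, IFIT2 1.53 ± 0.09 and PTRF 0.41 ± 0.09. Of the largest falls, EZH2 itself included, 10 were larger in MDA-MB-231: EZH2 -0.51 ± 0.10, CNN2 -1.06 ± 0.08, SLC7A11 -0.85 ± 0.07, ADM -1.49 ± 0.12, PPA2 -0.64 ± 0.10, IL24 -1.25 ± 0.09, FTO -0.43 ± 0.09, FST -1.22 ± 0.11, PBX2 -0.56 ± 0.08 and THBS1 -0.69 ± 0.12. EZH2 was thus lowered more in MDA-MB-231. In a fit of recovered counts SAMD9L and IFIT2 turned direction, and the difference for FST was -0.09 ± 0.72 and was not called.

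The other genes with the most positive difference were CPA4 1.47 ± 0.09, PRLR 1.39 ± 0.11 and SLCO4A1 1.36 ± 0.11, and those with the most negative, among genes reported here, were HAS2 -1.61 ± 0.10, FMN1 -1.56 ± 0.11, FAM102B -1.54 ± 0.09 and DUSP6 -1.47 ± 0.07. CPA4, SLCO4A1, HAS2, FMN1, FAM102B and DUSP6 changed in opposite directions in the lines.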

How the results depend on the processing

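The number of called genes in MDA-MB-231 (6990) was 5387 to 6135 when 1 library was left out, and the number past 1.5-fold (1148) was 1127 to 1214. On recovered counts edgeR called 2938 past 1.5-fold, where the fold of genes with few reads is not compressed. The interaction count (2662) was 1611 to 2532, the SUM149 count (7163) 5855 to 6431, the siRelA count (3031) 1624 to 2790 and the siRelB count (2913) 1520 to 2262 when 1 library was left out. In the same fit of recovered counts the difference between the lines turned direction for ANKRD1 0.84, COL13A1 -0.17, COL1A2 -2.07, HOXB9 1.77, IFIT1 -1.13, IFIT2 -0.48, IFIT3 -0.09, ITGB4 -0.88, NOG -1.53, PLXND1 -0.14, RECK -0.12, SAMD9L -0.29, TP53INP1 -0.61 and XAF1 -3.61.

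With a replicate block 6937 genes were called in MDA-MB-231, 7132 in SUM149, 2571 by interaction, 2958 under siRelA and 2828 under siRelB. Deviations of same-numbered libraries correlated at 0.088 in MDA-MB-231 and -0.117 in SUM149, so the numbers were not taken as pairs. With the numbers crossed in SUM149, an alternative chosen after seeing the data, the counts were 7073, 7278 and 2677. The block changed the count of ribosomal protein falls to 15.

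With 2 libraries a group, changes near the threshold depend on single libraries, as given beside those genes. Normalised values fix the centre of all genes, so a change of total RNA per cell cannot be seen. Reads that fell on near-identical genes, and overlapping or antisense genes, could not be told apart.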
